A study of Klebsormidium nitens with 4 samples.

Results

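Of the 17290 genes quantified in the filamentous charophyte alga *Klebsormidium nitens*, 107 were abundant and kept nearly the same mean level under high light as under low light. They were chosen by 2 limits on the measured values: at least 150 FPKM in each of the 4 libraries, and a ratio of mean high light to mean low light FPKM from 0.9 to 1.1. The rule leaves out identifiers found in the text of the study, but none of these genes met both limits. FPKM (fragments mapped to a gene, per length of its exons and per total of mapped reads) is a level relative to the rest of the library. It does not measure RNA per cell. In these bulk cultures, fewer cells with a transcript and less of it per cell cannot be told apart.

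All cultures were of strain NIES-2285, grown with CO2-enriched air in liquid medium under continuous white light. The 2 high light cultures received 1500 μE m-2 s-1 for 3 h, and the 2 low light cultures stayed at 50 μE m-2 s-1. The replicates of each condition were independent cultures, and polyadenylated RNA was sequenced once from each. One strain, one light dose and one time limit how far a stable gene can be carried over to other conditions.

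A transcript with a constant level is used as a reference gene, the yardstick against which quantitative PCR values of other genes are set. Usual candidates are housekeeping genes, such as those for actin, tubulin, elongation factors, ubiquitin and ribosomal proteins, and their constancy has to be checked for each treatment. Excess light is a demanding case, because algal cells reprogram photosynthesis, protein repair and translation within hours. A sequencing library reports shares of a whole, and a constant share is a constant amount only if the whole is constant, so the scaling of the libraries belongs to the definition of an unchanged gene.

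None of the 107 genes has a name or a product in the reference gene table, and the study does not name them, so they are given by identifier and no function is assigned. The first number in an identifier is that of the scaffold. The table matched 104 of them by locus number. The other 3, kfl00272_g6, kfl00975_g1 and kfl00975_g2, carry identifiers of another form. No member lies on the plastid or mitochondrial genome. The members are scattered over 96 scaffolds, at most 3 on the same one, and the length of the gene in the genome, introns included, ranged from 714 to 17724 bases with a median of 3178.

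In all, 458 genes had at least 150 FPKM in each library. Of these, 107 were in the ratio window, 147 were above it and 204 were below it. Among the 10557 genes above 0 in all 4 libraries, 13% were in the ratio window, a share that was 11.3% for genes with a mean from 1 to below 10 FPKM and 17% for those with a mean of at least 150 FPKM. Of the 65 genes that the study names, 7 were abundant by the same minimum, against 458 of all 17290 genes. Of these 7, 5 were above the window and 2 below it. The members took 12.3% and 12.4% of the summed FPKM in the high light libraries, against 12.1% in each of the low light libraries.

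**Figure D1:**
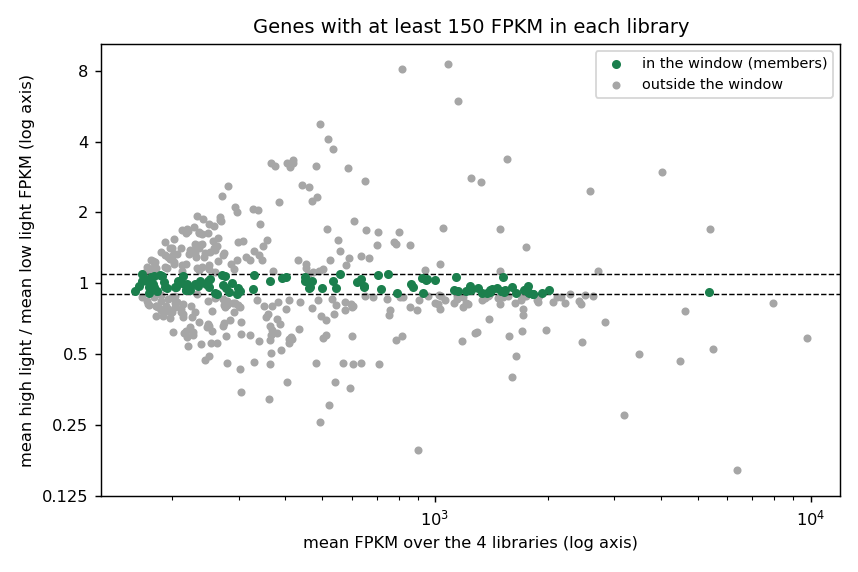
Each point is one of the 458 genes with at least 150 FPKM in each library, with its mean FPKM over the 4 libraries (x axis, log scale) against the ratio of mean high light to mean low light FPKM (y axis, log scale). The 107 genes between the dashed lines at 0.9 and 1.1 are the members, and those with a mean of at least 1000 FPKM lie mostly in the lower part of the window, where 28 of 30 have a ratio below 1.

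The members covered a wide range of levels, with means over the 4 libraries from 159 to 5376 FPKM and a median of 451 FPKM. The coefficient of variation (CV, the SD over the 4 libraries divided by their mean) ranged from 1.25% to 9.47%, with a median of 4.78%. It was below 5% in 55 genes and below 3% in 13. The median CV was 15.5% in the abundant genes below the window and 20.7% in those above it. The CV comes from the same values as the choice of members, so these figures describe the choice and were not tested.

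The gene with the lowest CV was kfl00347_0010, on bases 3259 to 10936 of its scaffold in assembly ASM70883v1. It had 246 and 243 FPKM in high light, against 250 and 244 FPKM in low light, a CV of 1.25%. The ranges of both conditions overlapped, and the highest value was that of low light replicate 1.

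The next genes by CV lay at a similar level. For kfl00133_0100 (bases 61324 to 64347) the values were 230 and 228 FPKM in high light and 234 and 227 FPKM in low light, with a CV of 1.38%. The gene kfl00097_0360 (bases 187210 to 191134) had 216 and 220 FPKM in high light, against 223 and 216 FPKM in low light, with a CV of 1.46%. In all 3 of these genes low light replicate 1 was the highest library and the conditions overlapped.

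The fourth gene, kfl00272_g6, was the first at a higher level. It had 851 and 868 FPKM in high light and 880 and 855 FPKM in low light, a CV of 1.53%. Low light replicate 1 was again the highest library.

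The fifth and sixth genes had slightly higher means in high light. FPKM of kfl01071_0010 (bases 772 to 11030) was 172 and 175 in high light and 172 and 168 in low light, a CV of 1.54%, and the conditions were apart by a small margin, with high light higher. FPKM of kfl00231_0180 (bases 110646 to 116528) was 165 and 170 in high light and 163 and 165 in low light, a CV of 1.90%. Its conditions overlapped, and high light replicate 2 stood highest.

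In the next pair both high light libraries were below both low light libraries. The gene kfl00025_0440 (bases 245002 to 248043) had 633 and 649 FPKM in high light and 664 and 650 FPKM in low light, a CV of 1.97%. The gene kfl00360_0020 (bases 6349 to 8964) had 851 and 871 FPKM in high light and 891 and 890 FPKM in low light, a CV of 2.18%. Its low light replicates were the closest pair among the 10 genes with the lowest CV.

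The last genes of the 10 overlapped between conditions. FPKM of kfl00074_0310 (bases 228337 to 231882) was 236 and 228 in high light and 241 and 233 in low light, a CV of 2.22%, and FPKM of kfl00062_0170 (bases 114349 to 121715) was 175 and 177 in high light and 169 and 177 in low light, a CV of 2.30%. In the last gene low light replicate 1 was the lowest library, the opposite of its place in the first 4.

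**Figure D2:**
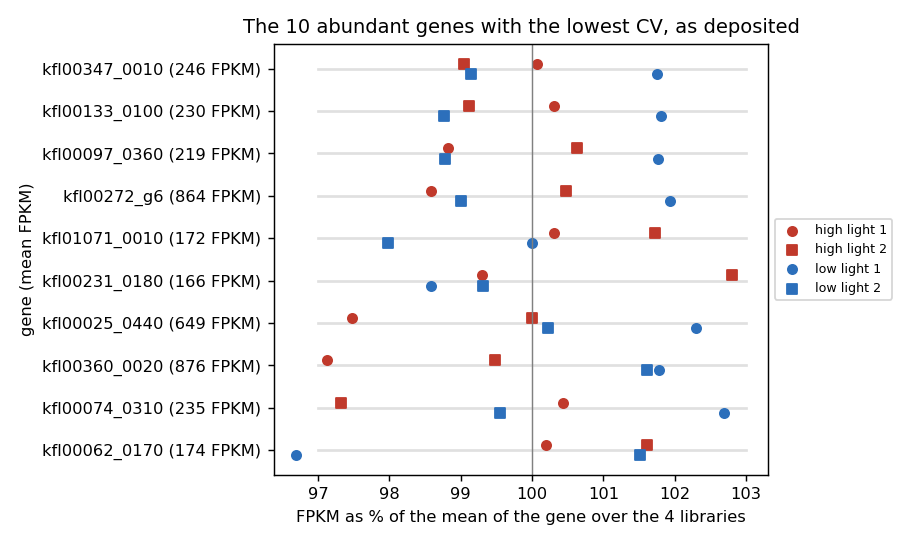
Points give the FPKM of each library as a percentage of the mean of the gene over the 4 libraries (x axis) for the 10 members with the lowest CV (y axis, lowest CV at the top, with the mean FPKM). Red points are high light and blue points low light, circles replicate 1 and squares replicate 2, and in 7 of the 10 genes the colours overlap.

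Over all 107 members, the libraries of both conditions overlapped in 55. In the other 52 they did not, and both high light libraries were lower in 36 of these and higher in 16. Such separation was found in 78.9% of the 10557 genes above 0 in all libraries and in 87.3% of the 458 abundant genes. It was lower in high light in 50% and higher in 28.8% of the 10557 genes. The ratio window is part of the rule, so the lower share among the members is given by their choice. A ratio between means within 10% of 1 thus did not imply mixed libraries. In 50 members, all 4 ratios of a high light library to a low light library were also from 0.9 to 1.1.

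In the 3 genes at the other end of the list, the low light replicates were further apart than the means of the conditions. The highest CV, 9.47%, was that of kfl00322_0090, with 171 and 205 FPKM in high light and 207 and 181 FPKM in low light. It was followed by kfl00424_0110 with 426 and 487 FPKM in high light and 514 and 433 FPKM in low light, and by kfl00118_0350 with 496 and 481 FPKM in high light and 564 and 461 FPKM in low light. In all 3 the conditions overlapped, and low light replicate 1 was the highest library.

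The most abundant member, kfl00093_0100 (bases 57051 to 59507), had 5041 and 5273 FPKM in high light, against 5662 and 5530 FPKM in low light, a ratio of 0.92. No other member exceeded 2500 FPKM. The next were kfl00345_0130 with 1913 and 1994 FPKM in high light and 1987 and 2167 FPKM in low light, and kfl00008_0470 with 1838 and 1844 FPKM in high light and 2039 and 1992 FPKM in low light.

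They were followed by kfl00440_0070, at 1697 and 1778 FPKM in high light and 1900 and 1943 FPKM in low light, and by kfl00035_0260, at 1648 and 1806 FPKM in high light and 1949 and 1881 FPKM in low light. In these 5 genes the mean was lower in high light, and only kfl00345_0130 overlapped between conditions, by the margin between its high light replicate 2 and low light replicate 1.

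The members were not evenly placed within the window. With a mean of at least 1000 FPKM there were 30, of which 28 had a ratio below 1, with a median ratio of 0.934. Among the 77 members below 1000 FPKM the ratio was below 1 in 41, with a median of 0.992. All 86 abundant genes with a mean from 1000 to below 2500 FPKM, members or not, had a median ratio of 0.888 and quartiles of 0.829 and 0.938, a narrower spread than the quartiles of 0.809 and 1.29 of the 199 genes with a mean below 300 FPKM. The members with a mean from 1000 to below 2500 FPKM were thus mostly in the upper part of a band with lower FPKM in high light. A lower level was not particular to this band, as the median ratio over the 10557 genes above 0 in all libraries was 0.842. The 16 abundant genes with a mean of at least 2500 FPKM had a median of 0.793 and wider quartiles, 0.519 and 0.972. As the ratio chose the members, none of these differences was tested.

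The limits of the rule cut through a continuous spread of values. Just inside the lower ratio limit were kfl00025_0330 at 0.901 and kfl00035_0260 at 0.902, and just outside were kfl00342_0180 at 0.899 and kfl00025_0220 at 0.898. Just inside the upper limit were kfl00055_0160 at 1.097 and kfl00079_0160 at 1.094, and just outside were kfl00055_0100 at 1.10005 and kfl00531_0070 at 1.113. Of the genes with a ratio in the window, the lowest library value was 152 FPKM in kfl00237_0060 and 153 FPKM in kfl00859_0050, just inside the minimum, and 149.7 FPKM in kfl00463_0050 and 145 FPKM in kfl00421_0050, just outside it. At the lower ratio limit, kfl00025_0330 had 240 and 259 FPKM in high light and 288 and 265 FPKM in low light, and kfl00342_0180 had 232 and 207 FPKM in high light and 237 and 252 FPKM in low light. Within each gene the replicates differed by more than the ratios 0.901 and 0.899 differ from each other.

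Leaving out 1 library and applying the rule to the other 3 gave 115 genes without high light replicate 1, 110 without high light replicate 2, 104 without low light replicate 1 and 116 without low light replicate 2. These lists held 97, 95, 93 and 92 of the 107 members, so leaving out 1 library removed 10 to 15 of them.

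The rule was also applied to 1 library per condition and read in the other library of each condition, which had no part in the choice. Of the 121 genes chosen in high light replicate 1 and low light replicate 1, 64 (52.9%) were in the window in the replicates 2. With the other 3 choices this share was 57.7%, 61.0% and 67.3%. Among all genes with at least 150 FPKM in the libraries used for the choice, it was 22.2% to 24.1%. Genes chosen as stable in one pair of libraries were in the window of the other pair more often than abundant genes in general, a difference that was not tested. Most of the misses were small, as 106 of the 121 genes in the first choice had a ratio within 20% of 1.

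The spread between replicates was not part of the rule. The median absolute difference between replicates, on the log2 FPKM scale, was 0.05 in high light and 0.07 in low light for the members. It was close to this in the abundant genes below the window, at 0.06 and 0.07, and in those above it, at 0.07 and 0.08. Over the 10557 genes above 0 in all libraries it was 0.18 and 0.20. The replicates of the members were thus as close as those of abundant genes in general. The widest difference between replicates among the members was 0.27 in high light and 0.29 in low light.

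A ratio near 1 does not show that a level did not change, and the interval around it gives the precision. With limma on log2(FPKM + 1) without normalization, the 95% interval of the difference between high and low light reached a median of 0.18 to either side on the log2 scale, which is a factor of 1.13. The interval lay within a factor of 1.5 in either direction for 105 members and within a factor of 1.2 for 54. For kfl00347_0010 it ran from -0.08 to 0.06 on the log2 scale, and for kfl00322_0090 from -0.62 to 0.52. After quantile normalization it lay within a factor of 1.5 for 102 members and within a factor of 1.2 for 46. With 1 library left out on that scale, the counts were 63 and 32 for the fit lacking high light replicate 1, 61 and 29 when replicate 2 of high light was dropped, 71 and 28 for the fit lacking low light replicate 1, and 71 and 32 when replicate 2 of low light was dropped. When genes below 1 FPKM in both conditions were dropped and all 4 libraries kept, which changes the variance that limma shares between genes, the interval lay within a factor of 1.2 for 0 members and within a factor of 1.5 for 101.

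Quantile normalization, which the study used for its tests, gives each library the same distribution of values. On that scale, limma with Benjamini-Hochberg adjustment over all genes gave an adjusted p below 0.05 for 10 of the 107 members, 1 higher and 9 lower in high light. Over all 17290 genes it did so for 13.4%, 7.06% higher and 6.32% lower. The members were chosen on this contrast, so nothing is read from the difference between these shares. Of the 10 calls, 5 (kfl00347_0010, kfl00133_0100, kfl00272_g6, kfl00025_0440 and kfl00074_0310) were among the 10 with the lowest CV, with log2 differences from -0.11 to -0.18 and limma adjusted p from 0.0175 to 0.0466. The 1 gene called higher was kfl00093_0100, at 0.25 on the log2 scale and a limma adjusted p of 0.00326. Its standard error in limma was 0.0013 on this scale, against 0.034 without normalization. This p thus does not carry the spread between replicates of the deposited values. Its deposited FPKM was lower in high light, so its direction turned with the normalization.

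These calls changed with the scale and with the genes in the fit, and the cause was not tested. Without normalization limma called 5 members, 2 higher and 3 lower in high light, against 13.6% of all genes, 5.44% higher and 8.2% lower. There kfl00347_0010, kfl00133_0100 and kfl00272_g6 had an adjusted p from 0.923 to 1. After median scaling 13 members were called, all 13 higher in high light, against 14.1% of all genes, 8.03% higher and 6.07% lower. When genes below 1 FPKM in both conditions were dropped from limma, 0 members were called and 0 had an unadjusted p below 0.05, whereas 43.6% of the genes in that fit were called, 22% higher and 21.6% lower. A fit with 1 library left out rests on 1 library in a condition, so its calls are not given.

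Scaling decided which genes qualified. Over the 10557 genes detected in every library, the median level was 14.4 and 14.8 FPKM in high light, against 17.2 and 16.6 FPKM in low light. Median scaling, which brings these 4 medians to the same value, multiplied high light replicates 1 and 2 by 1.09 and 1.06 and low light replicates 1 and 2 by 0.912 and 0.944. It raised the ratio of every gene by a factor of about 1.16. The median ratio of the members was 0.969 as deposited and 1.125 after median scaling, just above the upper limit of the window.

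After median scaling 142 genes qualified, and 35 of them were members as deposited. These 35 are 32.7% of the members and 24.6% of the new list. All 72 members that no longer qualified had a ratio above 1.1. None of the 10 members with the lowest CV qualified after median scaling, as their ratios lay from 1.12 to 1.19 and their CV from 6.81% to 10.2%.

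The 107 genes that qualified only after median scaling had deposited ratios from 0.775 to 0.921. Of these, 101 were abundant as deposited and 6 were under the minimum in at least 1 library. Their median CV was 10.6% as deposited and 4.48% after median scaling, against 4.78% for the members as deposited. Each list was chosen by the ratio on its own scale, so these CVs describe the choice and were not tested. The lowest CV was that of kfl00854_0040, which had 176 and 183 FPKM in high light and 212 and 207 FPKM in low light as deposited. After median scaling its values were 192 and 195 in high light and 193 and 195 in low light, a CV of 0.725%.

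The next was kfl00133_0120, with 148 and 149.9 FPKM in high light and 177 and 173 FPKM in low light as deposited, and a CV of 1.00% after median scaling. It was followed by kfl00764_0020, with 822 and 843 FPKM in high light and 984 and 975 FPKM in low light as deposited, and a CV of 1.22% after median scaling. In all 3 genes both high light libraries were below both low light libraries as deposited, and the libraries of the 2 conditions lay within a few percent of each other after median scaling.

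Sum and upper quartile scaling moved the list less than median scaling, and median of ratios scaling moved it slightly more. Sum scaling, which gives each library the same summed FPKM as TPM does, raised the ratio by a factor of 1.06. It left 84 members among 131 qualifying genes, 78.5% of the members and 64.1% of that list. Upper quartile scaling raised it by 1.05 and left 88 members among 123 genes, 82.2% of the members and 71.5% of that list. Median of ratios scaling raised it by 1.17 and left 26 members among 139 genes, 24.3% of the members and 18.7% of that list.

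All 10 genes with the lowest CV still qualified after sum scaling and after upper quartile scaling, where their CV ranged from 1.84% to 5.03% and from 1.83% to 5.49%. However, only 1 of them and 2 of them were then still among the 10 with the lowest CV. With a common factor on the high light libraries, the number of abundant genes in the window was highest at a factor of 1.13, with 144 genes. At a factor of 1.23 or more no member was in the window.

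**Figure D3:**
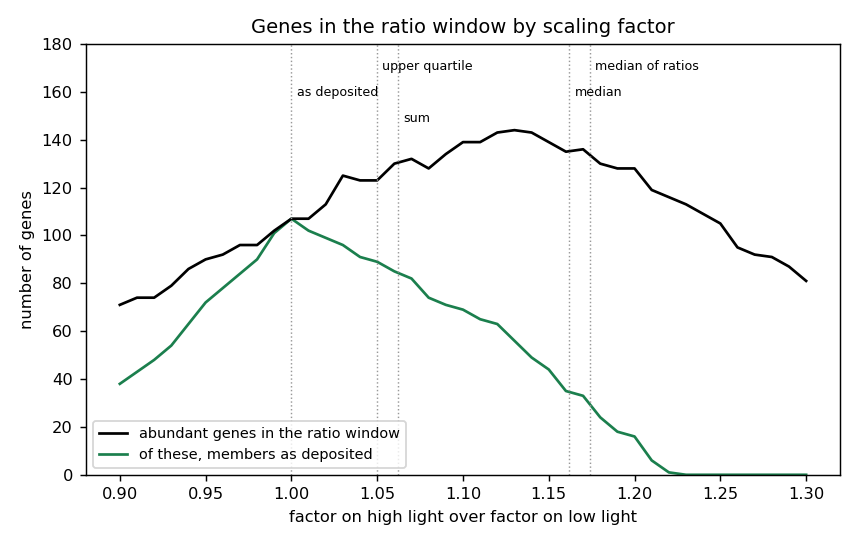
The black line gives the number of the 458 abundant genes, without those the study names, in the ratio window (y axis) when all high light values are multiplied by the factor on the x axis, and the green line the number of these that are members as deposited. Dotted lines mark the factors of 4 scalings and of the deposited values, and 107 members at a factor of 1 become 35 at 1.16, near median scaling.

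Quantile normalization acted differently at different levels. The 47 members with a mean below 300 FPKM had a median ratio of 0.983 as deposited and 0.904 after quantile normalization. For the 30 members with a mean of at least 1000 FPKM it was 0.934 as deposited and 0.998 after it. In all, 72 members qualified among 124 genes, 67.3% of the members and 58.1% of that list. Of the 35 members lost, 32 fell below the window and 3 lay above it.

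In 26 members the rule was met as deposited and after median, sum, upper quartile and median of ratios scaling. Their deposited ratios were from 0.901 to 0.936, in the lower part of the window, and in 23 of them both high light libraries were below both low light libraries. By CV as deposited they stood between place 28 and place 104 of 107, so that none of them was among the 10 most stable on the deposited scale. Levels were high, with 16 of the 26 at a mean of at least 1000 FPKM, against 30 of all 107 members. The highest of their 5 CVs had a median of 5.93%, against 8.61% over all members. Median of ratios scaling raised ratios by a factor of 1.17, so only members low in the window could qualify in all 5 settings. Their low ratios, high levels, separated libraries, places by CV and lower maximum CV are tied to that choice and were not tested.

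Of these 26, kfl00483_0090 (bases 41892 to 48381) had the lowest maximum CV, 4.94%. Its values were 290 and 293 FPKM in high light and 319 and 311 FPKM in low light, and its CV was as low as 1.33% after sum scaling. It was followed by kfl00093_0100, the most abundant member, with CVs from 2.18% to 5.13%, and by kfl00008_0470 (bases 392047 to 395120), with CVs from 1.88% to 5.30%.

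The replicates were closest in kfl00039_0160 (bases 96695 to 99632), with 1441 and 1438 FPKM in high light and 1549 and 1550 FPKM in low light. Its CV was 4.25% as deposited, 4.79% after median scaling and 0.802% after sum scaling. In limma without normalization this difference of -0.11 on the log2 scale had an adjusted p of 0.0133, and it is a description, since the rule used it.

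At a far lower level, kfl00619_0090 (bases 47489 to 50401) had 165 and 166 FPKM in high light and 184 and 178 FPKM in low light, with CVs from 2.14% to 5.45%. For kfl00094_0120 (bases 74314 to 77259) the values were 1085 and 1088 FPKM in high light and 1175 and 1151 FPKM in low light, with CVs from 0.782% to 5.46%. In both genes the conditions were apart by more than the replicates as deposited.

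The last 4 of the 10 were kfl00109_0130, kfl00433_0040, kfl00037_0290 and kfl00038_0240, with means of 1640, 1774, 1153 and 1539 FPKM and maximum CVs of 5.53%, 5.53%, 5.74% and 5.77%. Quantile normalization kept 15 of the 26 members and 7 of these 10 in the window. It lost kfl00483_0090 and kfl00619_0090 below the window and kfl00093_0100 above it.

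**Figure D4:**
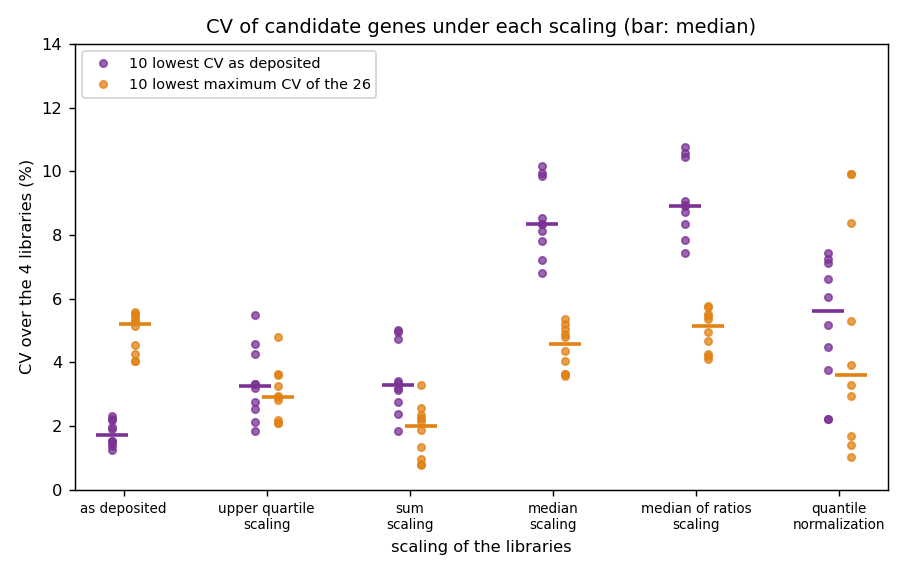
CV over the 4 libraries (y axis, %) of the 10 members with the lowest CV as deposited (purple) and of the 10 with the lowest maximum CV among the 26 that qualify under 5 scalings (orange), for each scaling (x axis). Points are genes and bars are medians, and the purple genes lie below 2.3% as deposited but above 6.8% after median scaling, while the orange genes stay below 5.8% in the first 5 settings.

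The ratio of 2 genes within a library does not depend on the scaling. For each member, the SD over the 4 libraries of the log2 ratio to each of the other members was averaged, the M value of the geNorm method, in which a low M marks a gene that keeps its proportion to the others. M ranged from 0.07 to 0.15 with a median of 0.09. It was lowest in kfl00025_0440, followed by kfl00272_g6, kfl00097_0360, kfl00347_0010 and kfl00360_0020, all among the 10 genes with the lowest CV. Of those 10, 7 were among the 10 with the lowest M. Since M is measured against the other members, it keeps the centre that the ratio window gave them.

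Against all 458 abundant genes, the centre of which was a ratio of 0.934, the order by M was another one. The 10 lowest values were all of members, which are 107 of the 458 genes. Of these 10, 6 were among the 26 of 107 members that qualify under 5 scalings. The centre lies inside the ratio window and within the deposited ratios of the 26, 0.901 to 0.936. Both counts are thus tied to the choice of these genes and were not tested. The lowest M was 0.285 in kfl00094_0120, followed by kfl00483_0090 and kfl00237_0060, against a median of 0.336 over the 458 genes. The ratios of the 20 genes with the lowest M ran from 0.888 to 0.991, and 18 of them were members. Which genes appear most stable therefore followed the set of genes used as the yardstick, also without any scaling.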

How the data were processed

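Polyadenylated RNA of 2 high light and 2 low light cultures was sequenced. The authors used FastQC for read quality, HISAT2 for mapping and StringTie for quantification against the first version of the annotated genome, and the deposited values are FPKM per gene and library, not quantile normalized. Versions of these tools are not given in the sources used here. The study's methods give a depth for the libraries, but FPKM do not keep the number of reads behind each value, so no counting error was computed.

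From these, ratios of mean FPKM and CVs were computed with Python 3.11.15 and pandas 2.3.3, and limma 3.58.1 (R 4.3.3) was run over all 17290 genes on quantile-normalized log2(FPKM + 1), with moderated variance and Benjamini-Hochberg adjustment. On simulated data with 200 genes changed by a factor of 4, this limma fit recovered 15.9% of them, and 100% when genes below 1 FPKM in both conditions were dropped. The mean number of false calls over 10 runs was 6.9 and 9.7. The simulation gave every detected gene the same noise, whereas the replicate spread here differed between genes. These shares are therefore not the power on the real data. The interval for 2 against 2 libraries rests on variance shared between genes. For a single gene, the smallest two-sided p of an exact permutation test is 0.333, and no such test was made.

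Scaling factors were set on the genes above 0 in all 4 libraries, or on the sum. Genes named are the 10 members with the lowest and the 3 with the highest CV, the 5 most abundant, the 10 with the lowest maximum CV among those qualifying under 5 scalings, the genes nearest each limit, and the 3 with the lowest CV that qualify only after median scaling. Members, lists and rules were chosen with earlier results of these data known. The common factor on high light and the reading in libraries not used for the choice were added after seeing the data. Coordinates are from the reference gene table of ASM70883v1, which holds the scaffold that the study names. Protein and promoter features were planned and are not analysed here. Figures were drawn with matplotlib 3.10.9.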

Additional observations from a re-analysis of the deposited data

How the results depend on the processing

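The number of qualifying genes stayed within 1.5 times 107 under each scaling and with each library left out (104 to 116), although the genes differed. It was 164 with a minimum of 100 FPKM, 52 with a ratio within 5% of 1, 217 within 20% of 1, and 50 with the ratio in the window in every pair of libraries. The median CV of the members was 8.49% after median of ratios scaling, and from 4.47% to 4.83% with 1 library left out. Genes at an adjusted p below 0.05 in limma numbered 2312, 4888 when genes below 1 FPKM in both conditions were dropped, and 385 to 777 with 1 library left out. Of the members, 10 had such a p, against 5 without normalization, 6 with a variance trend, 0 with those low genes dropped, and 1 with any 1 library left out. Over all genes, such a p was found for 3444 with a variance trend, more than the 2312 without it, whereas fewer members had one. Fewer libraries leave fewer degrees of freedom. Otherwise the cause was not tested.

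With the replicate number as a replicate block, limma called 0 genes and 0 members, as it did with crossed numbers, a setting chosen after the data were seen because the differences between replicates correlated at -0.193 over genes. At an unadjusted p below 0.05 there were 4365 genes and 24 members with equal numbers, and 4383 genes and 22 members with crossed ones. The labels give no shared batch for equal numbers, and the cause of the lost calls was not tested. FPKM without counts limit the precision of a value to what 2 replicates show.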

Other observations

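Some pairs of members kept their proportion closely. The quotient of kfl00097_0360 over kfl00272_g6 was 0.254 in both high light libraries and 0.253 in both low light libraries, the lowest SD of the log2 quotient (0.0034) among 5671 pairs. The quotient of kfl00347_0010 over kfl00133_0100 was 1.067 and 1.069 in high light and 1.069 and 1.074 in low light. The closest of so many pairs is low by selection alone, and no test was made.

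The members kfl00093_0100 and kfl00093_0110 were the only pair of neighbours in the reference gene table. The first had 5041 and 5273 FPKM in high light and 5662 and 5530 FPKM in low light, whereas the second had 627 and 670 FPKM in high light and 672 and 566 FPKM in low light. On scaffold kfl00133, kfl00133_0100 had the second lowest CV as deposited, and kfl00133_0120 the second lowest among the genes that qualify only after median scaling.

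The share of the summed FPKM on features of the plastid genome was 2.05% and 0.0739% in high light replicates 1 and 2, and 0.0462% and 2.77% in low light replicates 1 and 2. It did not follow the conditions, and the part it has in the deposited levels of the members was not tested.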
